A study of Mus musculus with 14 samples.

Results

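The adult globin genes Hba-a1, Hba-a2, Hbb-bs and Hbb-bt and the erythroid heme synthesis gene Alas2 were followed across 14 RNA-seq libraries of cells sorted from mouse skin. These 5 genes, of 52636 in the deposited table and 18394 that passed a filter on low counts, were chosen by their measured levels, which were high in the libraries named DN. Levels in DN are therefore given as a description, with no test. The mice were C57/BL6 males of 7 weeks, the cells came from the wound bed of the dermis at day 5, and each of 7 groups had 2 libraries. In 1 set of 6 libraries the groups were Adipocyte, AdipoqTraced (cells that the labels also call GFP, named for tracing from Adipoq) and CD26 (sorted for the protein of Dpp4). The other set of 8 libraries was a renewed analysis by the authors of an earlier series, with the groups AP_CD9Low, AP_CD9High, CD29 and DN. The file headers call the CD29 libraries high and the DN libraries low for CD29, the protein of Itgb1. The labels do not spell out AP or DN, the sort gates and tracing alleles were not given in the sources used here, and no treatment other than the wound is named. Separate animals are not stated for the libraries of a group, so each p-value measures the spread between samples that may be technical repeats. Each group belongs to 1 set, so set and group cannot be told apart, and every test between groups stays within a set.

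Hemoglobin, the oxygen carrier of red blood cells, is a tetramer of alpha-type and beta-type globin chains, each holding a heme group. In adult mice the alpha chains come from Hba-a1 and Hba-a2 and the beta chains of the C57BL strains from Hbb-bs and Hbb-bt. Heme is built by a chain of enzymes that starts with 5-aminolevulinate synthase, made from Alas2 in erythroid cells and from Alas1 in most others. Mature red cells of mice have lost their nucleus, and young ones (reticulocytes) still carry globin RNA. Blood reaches a fresh skin wound, and macrophages there take up red cells and break down their heme.

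The sequences show how closely the copies resemble each other, which bears on how far their counts can be told apart. Coding sequences came from the GENCODE M21 transcripts of mm10 (GRCm38). Over 426 coding bases Hba-a1 and Hba-a2 differed at 1 position, C381T, written as the Hba-a1 base, the position from the first coding base and the Hba-a2 base. Over 441 coding bases Hbb-bs and Hbb-bt also differed at 1 position, C417T, written in the same way. A stretch of 50 bases was identical between the copies for 87.8% of such stretches in the alpha pair and 93.6% in the beta pair. The windows around each difference are printed 5′ to 3′ along the gene, with the differing base in capitals, for chr11:32284323-32284383 (plus strand, last exon of Hba-a1), chr11:32297140-32297200 (plus strand, last exon of Hba-a2), chr7:103826668-103826712 (minus strand, last exon of Hbb-bs) and chr7:103812659-103812703 (minus strand, last exon of Hbb-bt).
Hba-a1: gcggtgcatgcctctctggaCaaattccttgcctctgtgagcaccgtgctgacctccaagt
Hba-a2: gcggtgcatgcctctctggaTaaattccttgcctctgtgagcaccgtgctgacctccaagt
Hbb-bs: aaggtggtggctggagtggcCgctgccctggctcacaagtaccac
Hbb-bt: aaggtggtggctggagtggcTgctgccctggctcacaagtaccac
How reads that match both copies were assigned was not given in the sources used here, so the split between copies is uncertain and the sum of each pair is given as well.

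Promoters are shown because all 5 genes were at their highest in the same 2 libraries. The 120 bases before each start in RefSeq (GRCm38.p6) are printed 5′ to 3′ along the gene, from chr11:32283552-32283671 for Hba-a1 and chr11:32296372-32296491 for Hba-a2 (plus strand), chr7:103827929-103828048 for Hbb-bs and chr7:103813924-103814043 for Hbb-bt (minus strand), and chrX:150547297-150547416 for Alas2 (plus strand). Capitals mark matches on either strand to AGATAA (the core bound by GATA factors), CACCC (bound by Klf factors), CCAAT and TATAA.
Hba-a1: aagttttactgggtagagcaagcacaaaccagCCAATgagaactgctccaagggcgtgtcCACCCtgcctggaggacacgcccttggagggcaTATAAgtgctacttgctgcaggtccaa
Hba-a2: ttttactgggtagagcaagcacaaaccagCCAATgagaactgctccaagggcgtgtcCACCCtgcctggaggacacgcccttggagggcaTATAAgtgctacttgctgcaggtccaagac
Hbb-bs: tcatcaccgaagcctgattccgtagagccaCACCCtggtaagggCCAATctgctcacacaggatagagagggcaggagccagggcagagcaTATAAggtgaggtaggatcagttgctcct
Hbb-bt: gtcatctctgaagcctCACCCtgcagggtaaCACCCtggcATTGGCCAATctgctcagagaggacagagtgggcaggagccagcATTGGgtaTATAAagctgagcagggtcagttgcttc
Alas2: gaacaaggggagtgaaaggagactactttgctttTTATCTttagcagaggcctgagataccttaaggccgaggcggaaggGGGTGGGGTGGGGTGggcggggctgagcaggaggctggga
Over the 250 bases before the start, the alpha pair matched at 247 of 247 aligned bases with a shift of 3 bases, and the beta pair at 127 of 249. Distances are counted from the RefSeq starts. The GENCODE M21 spans given below reach farther upstream for all 5 genes, so each printed window lies partly or wholly within its span. A TATAA on the gene's own strand began 27 to 30 bases before the start in the 4 globin genes. Alas2 had an AGATAA on the opposite strand, 86 to 81 bases before its start, and Hbb-bs had one farther out, 210 to 205 bases before its start. CACCC was found in all 5 windows of 250 bases and CCAAT in the 4 globin windows. No 2 of the motifs as searched share a base in the windows printed, apart from neighbouring matches in Hbb-bt and Alas2 that touch. Of 32851 RefSeq promoter windows of the same length, AGATAA was in 9.99%, CACCC in 52.0%, CCAAT in 33.8% and TATAA in 22.8%, so a match is a description and no site.

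Library totals ran from 13760557 to 22218364 counts. Adipocyte libraries stood apart, with 79.1% and 84.8% of counts from the mitochondrial genome, against 18.4% to 38.8% in the other 4 libraries of that set and 0.192% to 0.941% in the reanalysed set. Levels below are CPM, that is counts relative to 1000000 counts of a library, with the trimmed mean of M values (TMM) as scaling, and compare a gene between libraries. The summed adipocyte markers were at 4797 to 7432 CPM in Adipocyte and at most 61.7 CPM in the other groups of that set. Itgb1 RNA was at 578 and 589 CPM in DN, 647 and 878 CPM in CD29 and 584 to 666 CPM in the AP libraries. Cd9 RNA was at 134 and 174 CPM in AP_CD9High and 45.5 and 48.1 CPM in AP_CD9Low, and Dpp4 RNA at 131 and 140 CPM in CD26 against 14.6 to 49.8 CPM in the other groups of its set. Summed fibroblast markers reached 68600 and 79338 CPM in the DN libraries and 136196 to 149213 CPM in the AP libraries. In bulk samples, fewer cells of a type and less RNA per cell cannot be told apart.

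Adult globin RNA formed a steep order over the reanalysed groups, highest in DN, then CD29, then the AP groups. The 4 globins summed to 5435 and 6690 CPM in DN, which was 0.802% and 1.04% of all counts in those libraries. They summed to 259 and 161 CPM in CD29. They summed to 80.9 and 51.2 CPM in AP_CD9High and to 53.3 and 23.4 CPM in AP_CD9Low. The DN and CD29 ranges lay apart from each other and from the AP range, while the AP_CD9High and AP_CD9Low ranges overlapped. As a ratio of means, the sum in DN was 116-fold that of the 4 AP libraries together (a log2 ratio of 6.86) and 28.9-fold that of CD29 (a log2 ratio of 4.85). Across the leave-one-out values these log2 ratios stayed between 6.60 and 7.14 and between 4.54 and 5.23.

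**Figure D1:**
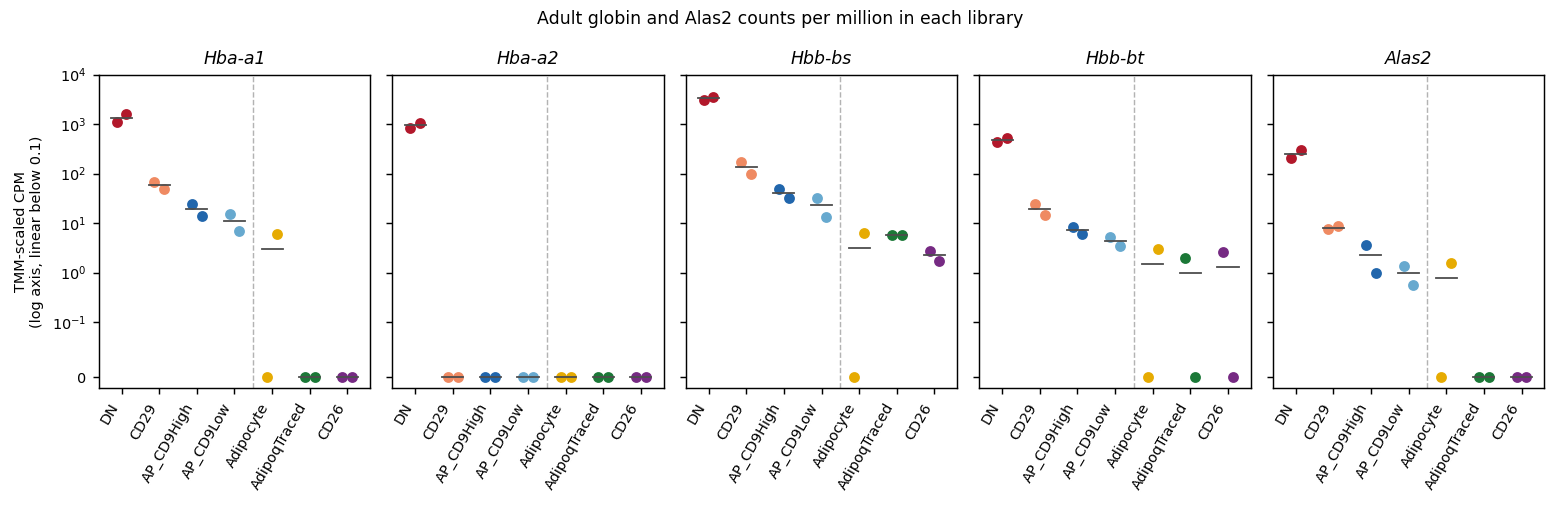
TMM-scaled CPM (log axis, linear below 0.1) for each of the 5 genes in every library, by group; each point is 1 library and each bar the mean of 2. The dashed line parts the reanalysed set (left) from the other set (right), between which no comparison is made; Hba-a2 lies at 0 in the 12 libraries outside DN.

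Among the alpha genes, Hba-a1 (ENSMUSG00000069919, chr11:32283511-32284465, plus strand, mm10) had 33522 and 38027 counts in DN, or 1087 and 1582 CPM. In CD29 it was at 66.2 and 48.6 CPM. In AP_CD9High it was at 23.8 and 13.8 CPM and in AP_CD9Low at 15.3 and 6.82 CPM. The mean in DN, 1335 ± 350 CPM (SD, n = 2), was 89.2-fold that of the AP libraries, 15.0 ± 6.99 CPM (SD, n = 4), and 23.2-fold that of CD29.

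Hba-a2 (ENSMUSG00000069917, chr11:32296489-32297298, plus strand) had 25881 and 25445 counts in DN, or 839 and 1059 CPM, and was at 0 in each of the 12 other libraries. It passed the filter on low counts only through DN. Against a floor of 3 counts over the group, its mean in DN was at least 33244-fold higher than in AP and at least 18511-fold higher than in CD29. This split between the copies went against that of Hba-a1, which had counts in every reanalysed library. Of all alpha counts, Hba-a2 took 43.6% (95% exact binomial interval 43.2% to 44.0%) in 1 DN library and 40.1% (39.7% to 40.5%) in the other. In CD29 it took 0 of 2246 and 0 of 1197 alpha counts, which allow a share of up to 0.134% and 0.251%. In AP_CD9High it took 0 of 624 and 0 of 361, which allow up to 0.481% and 0.831%. In AP_CD9Low it took 0 of 410 and 0 of 178, which allow up to 0.732% and 1.69%. The part of read assignment in this split was not tested. With the copies summed, alpha RNA was at 1926 and 2641 CPM in DN, 153-fold the mean of AP and 39.8-fold that of CD29.

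Of the beta genes, Hbb-bs (ENSMUSG00000052305, chr7:103826534-103828096, minus strand) had the highest level of the 5 genes per kilobase of exon in DN, 3997 and 4577 CPM per kilobase. Its counts there were 94658 and 84463, or 3069 and 3515 CPM. It was at 168 and 97.7 CPM in CD29. It was at 48.8 and 31.4 CPM in AP_CD9High and 32.7 and 13.1 CPM in AP_CD9Low. The mean in DN, 3292 ± 315 CPM (SD, n = 2), was 105-fold that of AP, 31.5 ± 14.6 CPM (SD, n = 4), and 24.8-fold that of CD29.

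Hbb-bt (ENSMUSG00000073940, chr7:103812524-103813996, minus strand) followed the same order, at 625 and 760 CPM per kilobase of exon in DN. It was at 440 and 534 CPM in DN and 24.4 and 14.7 CPM in CD29. It was at 8.29 and 5.94 CPM in AP_CD9High and 5.20 and 3.52 CPM in AP_CD9Low. Its mean in DN was 84.8-fold that of AP and 24.9-fold that of CD29. Unlike the alpha copies, the beta copies kept a like split across these groups. Hbb-bt took 12.5% and 13.2% of beta counts in DN, 12.6% and 13.1% in CD29, 14.5% and 15.9% in AP_CD9High, and 13.7% and 21.2% in AP_CD9Low. The value of 21.2% rested on 92 of 434 counts (95% exact binomial interval 17.4% to 25.3%).

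Alas2 (ENSMUSG00000025270, chrX:150547375-150570638, plus strand) had 6313 and 7289 counts in DN, or 205 and 303 CPM. It was at 7.58 and 8.65 CPM in CD29. It was at 3.63 and 0.997 CPM in AP_CD9High and 1.38 and 0.574 CPM in AP_CD9Low, the latter from 37 and 15 counts. Its mean in DN, 254 ± 69.7 CPM (SD, n = 2), was 154-fold that of AP, 1.65 ± 1.36 CPM (SD, n = 4), and 31.3-fold that of CD29. Over the 8 libraries the groups fell in the same order as for the globins, with the AP_CD9High and AP_CD9Low values overlapping.

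The balance within the group of genes varied less than the levels. Per kilobase of exon, the summed alpha level was 0.562 and 0.663 of the summed beta level in DN. That ratio was 0.322 and 0.404 in CD29, 0.390 and 0.345 in AP_CD9High, and 0.378 and 0.380 in AP_CD9Low. Both DN values were thus above the 6 others, and DN was also the group in which Hba-a2 had counts. Alas2 took 3.63% and 4.34% of the counts of the 5 genes in DN and 2.84% and 5.10% in CD29. It took 4.29% and 1.91% in AP_CD9High and 2.53% and 2.39% in AP_CD9Low, so the groups overlapped in this share. Intervals and floors here cover counting error only, since amplified reads without molecular identifiers are not independent molecules.

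**Figure D2:**
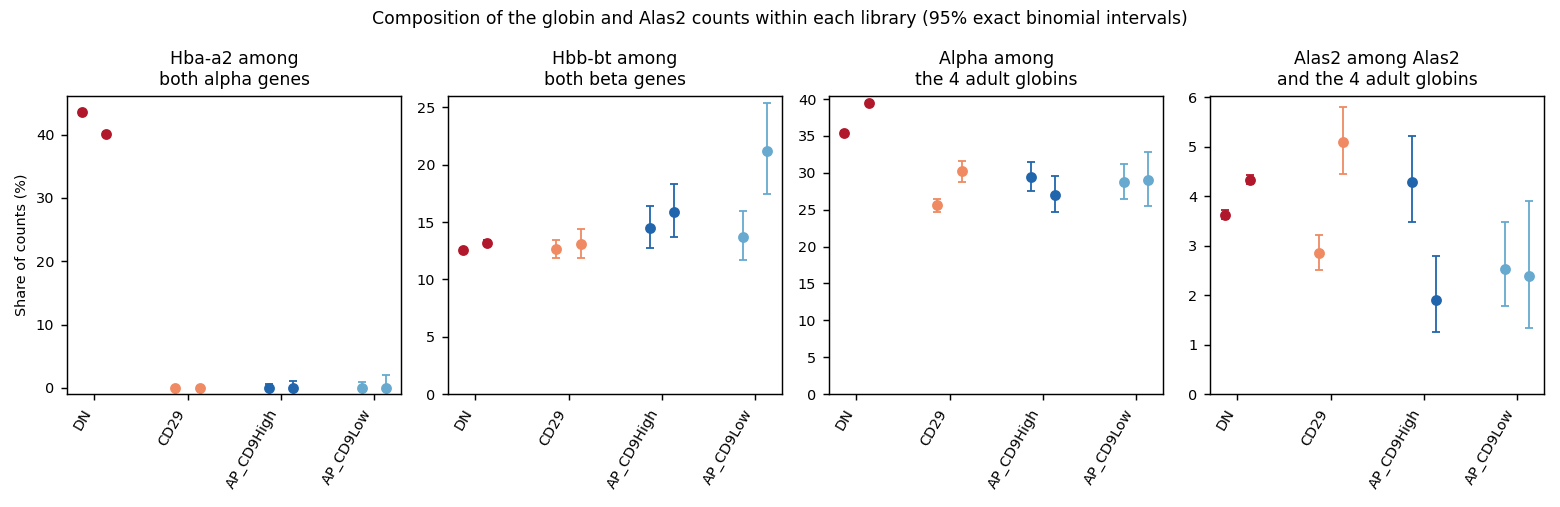
Shares of counts (%) in each library of the reanalysed groups, for Hba-a2 among both alpha genes, Hbb-bt among both beta genes, alpha among the 4 globins, and Alas2 among the 5 genes. Points are libraries and bars 95% exact binomial intervals; Hba-a2 was at 43.6% and 40.1% in DN and 0 elsewhere, while the share of Hbb-bt was near 13% in DN and CD29.

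CD29 against AP was a comparison that the choice of the genes for their levels in DN did not use, though earlier results of these data were known. In edgeR's quasi-likelihood test, with Benjamini-Hochberg adjustment over all 18394 genes, 4 of the 5 genes rose in CD29, where 4.39% of all tested genes were called and 2.52% were called as higher. Hba-a1 was 57.4 ± 12.5 CPM (SD, n = 2) against 15.0 ± 6.99 CPM in AP (SD, n = 4), a log2 fold change of 1.99 (SE 0.35, edgeR adjusted p = 0.00253). Hbb-bs rose by 2.14 on the log2 scale (SE 0.32, edgeR adjusted p = 0.000454) and Hbb-bt by 1.82 (SE 0.44, edgeR adjusted p = 0.0178). Alas2 rose from 1.65 to 8.12 CPM, a log2 fold change of 2.41 (SE 0.52, edgeR adjusted p = 0.0119). Hba-a2 was at 0 in all 6 libraries and gave no fold. For each of the 4 genes both CD29 libraries were above all 4 AP libraries. These calls rested on few libraries: 1 remained by DESeq2 (Alas2), 0 with edgeR's legacy option, 2 without AP_CD9Low replicate 2 or without AP_CD9High replicate 2, and 1 (Hbb-bs) without CD29 replicate 1. Alas2 also lost its call without CD29 replicate 2 (adjusted p = 0.103) and Hbb-bt without AP_CD9Low replicate 1 (adjusted p = 0.052); Hbb-bs passed in every fit that left out 1 library, and the log2 fold changes over all settings ran from 1.40 to 3.02.

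Summed markers of macrophages, mast cells, platelets and neutrophils were highest in DN, then CD29, then the AP groups, the order of the globins. The means of endothelial, keratinocyte, T cell and adipocyte markers fell in that order too, but with DN and CD29 ranges that overlapped. B cell markers did not follow it, and fibroblast markers were highest in the AP groups. Adipocyte markers summed to 41.8 to 92.8 CPM in DN, 50.8 to 63.4 in CD29 and 6.79 to 14.3 over the AP groups. The 12 macrophage and monocyte markers summed to 9083 to 10115 CPM in DN, 3849 to 4294 in CD29, 2011 to 2327 in AP_CD9High and 1157 to 1203 in AP_CD9Low, with none at 0. Of these, 12 rose in DN against AP, where 4.57% of all tested genes were called as higher, and 9 in CD29 against AP, where 2.52% were. The 9 mast cell markers summed to 393 to 436 CPM in DN, 50.3 to 93.9 in CD29, 18.4 to 19.7 in AP_CD9High and 5.02 to 11.6 in AP_CD9Low, and 8 of the 9 rose in DN against AP and 5 in CD29 against AP, against the same shares over all genes. Among the 12 platelet and megakaryocyte markers, 4 to 7 were at 0 in each DN library. Their sum was 543 to 590 CPM in DN, 302 to 321 in CD29, 178 to 198 in AP_CD9High and 80.5 to 116 in AP_CD9Low. The 10 endothelial markers summed to 80.2 to 189 CPM in DN, 65.1 to 113 in CD29 and 32.2 to 50.2 over the AP groups. The 12 neutrophil markers summed to 289 to 676 CPM in DN, 172 to 180 in CD29 and 73.4 to 122 over the AP groups, with 2 to 4 at 0 in DN. The 4 keratinocyte markers differed between the DN libraries, at 63.1 and 1385 CPM. They summed to 30.0 to 175 CPM in CD29 and 6.19 to 27.3 over the AP groups. T cell markers summed to 12.6 to 17.5 CPM in DN, 2.33 to 14.1 in CD29 and 0 to 10.7 over the AP groups, so DN and CD29 overlapped. B cell markers summed to 0.541 to 2.24 CPM in DN, 1.06 to 1.98 in CD29 and 0.262 to 3.34 over the AP groups, and all of these ranges overlapped. The part of these cells in the globin levels was not tested.

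AP_CD9High against AP_CD9Low, the other comparison of this set, gave 0 calls among the 5 genes in edgeR, 0 at an unadjusted p under 0.05 and 0 by DESeq2, with 0.0217% of all tested genes called. The log2 fold changes were 0.76 for Hba-a1 (SE 0.46), 0.81 for Hbb-bs (SE 0.41), 0.70 for Hbb-bt (SE 0.63) and 1.23 for Alas2 (SE 0.86). The ranges overlapped for Hba-a1, Hbb-bs and Alas2, whereas both Hbb-bt values were higher in AP_CD9High, at 8.29 and 5.94 against 5.20 and 3.52 CPM.

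The 8 other enzymes of heme synthesis were all tested. In DN against AP 0 of them were called by edgeR or by DESeq2, where edgeR called 6.75% of all tested genes, 4.57% as higher and 2.18% as lower, so that a list of 8 with no call is near the background. Their median log2 fold change was -0.26, against 0 over all tested genes. None reached an unadjusted p under 0.05, and their log2 fold changes ran from -0.78 to 0.15. The value was 0.08 for Alas1 (SE 0.32), 0.15 for Alad (SE 0.37), -0.78 for Ppox (SE 0.44) and -0.16 for Fech, which inserts the iron (SE 0.27). Alas1, the general form of the first enzyme, was at 38.0 and 35.0 CPM in DN and 31.1 to 37.0 CPM in AP. Per kilobase of exon, the level of Alas2 was 13.8 and 22.2 times that of Alas1 in DN, 0.963 and 0.877 times in CD29, 0.300 and 0.0752 times in AP_CD9High, and 0.0967 and 0.0399 times in AP_CD9Low. Alas2 was thus the more abundant form per kilobase in both DN libraries and the less abundant in the 6 others. Each level was divided by the length of all annotated exons of the gene together, so the size of these ratios depends on that choice. Without a length, Alas2 was at 205 and 303 CPM in DN, where Alas1 was at 38.0 and 35.0 CPM. In CD29, Alas2 was at 7.58 and 8.65 CPM and Alas1 at 20.2 and 25.4 CPM.

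The other genes of red cells and of heme handling, fixed as 7 lists of 92 matched genes that include those enzymes, were tested in the same contrast, which is no independent support for the globins. Of 76 tested, 12 rose and 1 fell in DN against AP, with a median log2 fold change of 0.14. Over all tested genes, 4.57% were called as higher and 2.18% as lower there. Of the red cell enzymes and maturation genes, 5 of 13 rose. Bpgm, which makes the red cell regulator of oxygen release 2,3-bisphosphoglycerate, was at 76.0 and 103 CPM in DN, 45.7 and 46.6 in CD29 and 15.1 to 27.3 in AP. It rose by 2.16 on the log2 scale (SE 0.31, edgeR adjusted p = 0.000243). Mkrn1, a ubiquitin ligase gene, rose by 1.31 (SE 0.32, edgeR adjusted p = 0.0153), a call lost under 7 of 16 alternatives. Ube2o, a ubiquitin-conjugating enzyme of reticulocyte maturation, and Car2, a carbonic anhydrase, were also called by edgeR but not by DESeq2, with Car2 at 2.24 and 14.3 CPM in DN.

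Some genes of iron storage, iron export and heme clearance rose in DN. Of 20 iron genes 3 were called, all higher, where 4.57% of all tested genes were called as higher. Slc40a1, the iron exporter ferroportin, was at 32.5 and 29.9 CPM in DN and 3.03 to 15.3 CPM in AP, a log2 fold change of 2.28 (SE 0.46, edgeR adjusted p = 0.00414). That call was lost by DESeq2 (adjusted p = 0.0729), which called Fth1 and Ftl1 alone of the 20, and with edgeR's legacy option (adjusted p = 0.156); over its alternatives the adjusted p ran from 0.00157 to 0.156. The ferritin genes Ftl1 and Fth1 rose by 1.37 (SE 0.29) and 0.70 (SE 0.16), and both lost their calls without either DN library. Tfrc, the transferrin receptor through which erythroid precursors take up iron, was at 14.4 and 16.1 CPM in DN and 9.13 to 26.4 CPM in AP, which overlapped. Of 8 clearance genes 3 were called by edgeR, all higher, against the same share over all genes. DESeq2 called the same 3 and also Lrp1, which was lower, at 465 and 522 CPM in DN and 664 to 878 CPM in AP. Cd163, the scavenger receptor of macrophages for hemoglobin, was at 44.2 and 38.4 CPM in DN and 12.2 and 11.3 in CD29; in AP it was at 5.50 and 6.10 CPM in both replicates 1 and 0.383 and 0.191 CPM in both replicates 2. Its log2 fold change in DN against AP was 3.76 (SE 0.54, edgeR adjusted p = 0.000262). Slc48a1, a heme transporter of the lysosome, rose by 1.41 (SE 0.23), and Hmox1, the heme oxygenase that opens the heme ring, by 1.10 (SE 0.24). Macrophages express Cd163, Slc40a1, Slc48a1 and Hmox1 too, and the sums of macrophage markers given above were likewise highest in DN among the reanalysed groups. Within AP, Cd163 differed by replicate number, whereas those sums differed by CD9 group. The part of macrophages in these levels was not tested.

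Several defining genes of earlier erythroid cells had few or no counts in DN. Of 10 erythroid transcription factors, 6 had counts in both DN libraries, 2 in 1 and 2 in neither, and 0 of 8 tested were called by edgeR or by DESeq2, with 4 at an unadjusted p under 0.05 in edgeR (Tal1, Nfe2, Lmo2 and Bcl11a). With 6.75% of all tested genes called by edgeR, a list of 8 with no call is near the background. Gata1, the master factor of erythroid genes, had 45 and 0 counts in DN, and Klf1 and Gfi1b had 0 and 0. Of 19 red cell surface and skeleton genes, 4 had counts in both DN libraries, 5 in 1 and 10 in neither. Slc4a1, the band 3 anion exchanger, had 0 and 52 counts in DN and 0 in the 12 other libraries, and Epb42 was at 0 throughout. Epb41, which makes protein 4.1 of the skeleton and is used by many cell types, was the 1 gene of 15 tested that was called (log2 fold change 1.37, SE 0.38, edgeR adjusted p = 0.0336). Its DN values of 14.9 and 42.8 CPM overlapped with the AP range of 8.61 to 15.0 CPM, and the call was lost under 10 of 16 alternatives. With 1 call of 15, this list too was near the share over all genes.

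Embryonic and theta globin genes had few or no counts in DN. Hba-x, Hbb-y and Hbb-bh1, the embryonic genes, had 0 counts in both DN libraries, and Hbb-bh2 was at 0 throughout. Hbq1a and Hbq1b, the theta globin genes beside the alpha genes, had 18 and 27 and 14 and 0 counts in DN and 0 in the 12 other libraries; Hbq1a was not called (edgeR adjusted p = 0.176) and Hbq1b did not pass the filter. Myoglobin (Mb) had 82 and 0 counts in DN. Cytoglobin (Cygb), a globin of fibroblasts, fell in DN against AP, from 86.2 ± 28.7 CPM (SD, n = 4) to 23.0 ± 0.884 CPM (SD, n = 2), a log2 fold change of -1.90 (SE 0.39, edgeR adjusted p = 0.00466). It fell by 1.85 on the log2 scale in CD29 against AP (SE 0.39, edgeR adjusted p = 0.00843), a comparison that shares the AP libraries.

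The count of 13 pathway genes called in DN against AP was 8 without AP_CD9Low replicate 2, without AP_CD9High replicate 2 or without DN replicate 1, and 5 without DN replicate 2. Bpgm and Cd163 passed under all 16 alternatives run.

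**Figure D3:**
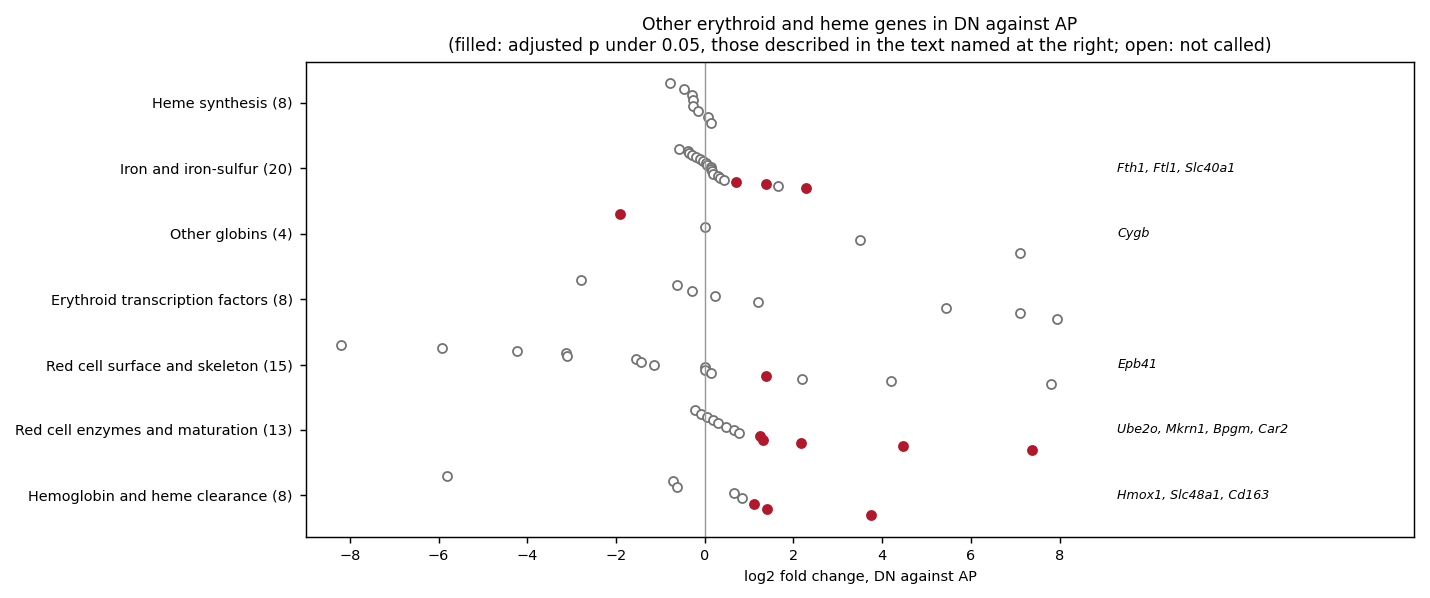
Log2 fold change in DN against AP for the 76 tested genes of 7 pathway lists, each point 1 gene, with the number tested in parentheses. Filled points passed an adjusted p under 0.05 in edgeR; the 8 heme synthesis genes lie near 0, and genes with few counts spread widely without a call.

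In DN against CD29 edgeR called 11 of 18394 genes (0.0598%). The 5 genes are among the 11, which their choice for high levels in DN fixed, so nothing is read from it. The 6 others were named after their values were seen. They were the mast cell proteases Cma1 and Tpsb2 and the mitochondrial genes mt-Nd6 and mt-Cytb, higher in DN, and the smooth muscle genes Acta2 and Myl9, lower in DN. None of the 76 pathway genes was called by edgeR, with 12 at an unadjusted p under 0.05 and 1 called by DESeq2. In CD29 against AP, where 4.39% of all tested genes were called, 2 of the 76 were called, which is not above that share. They were Cygb, given above, and Bpgm, which rose by 1.21 on the log2 scale (SE 0.32, edgeR adjusted p = 0.0393). Bpgm lost its call under 9 of 15 alternatives. In AP_CD9High against AP_CD9Low, where 0.0217% of all tested genes were called, edgeR called 0 of 76, with 6 at an unadjusted p under 0.05 and 0 called by DESeq2.

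**Figure D4:**
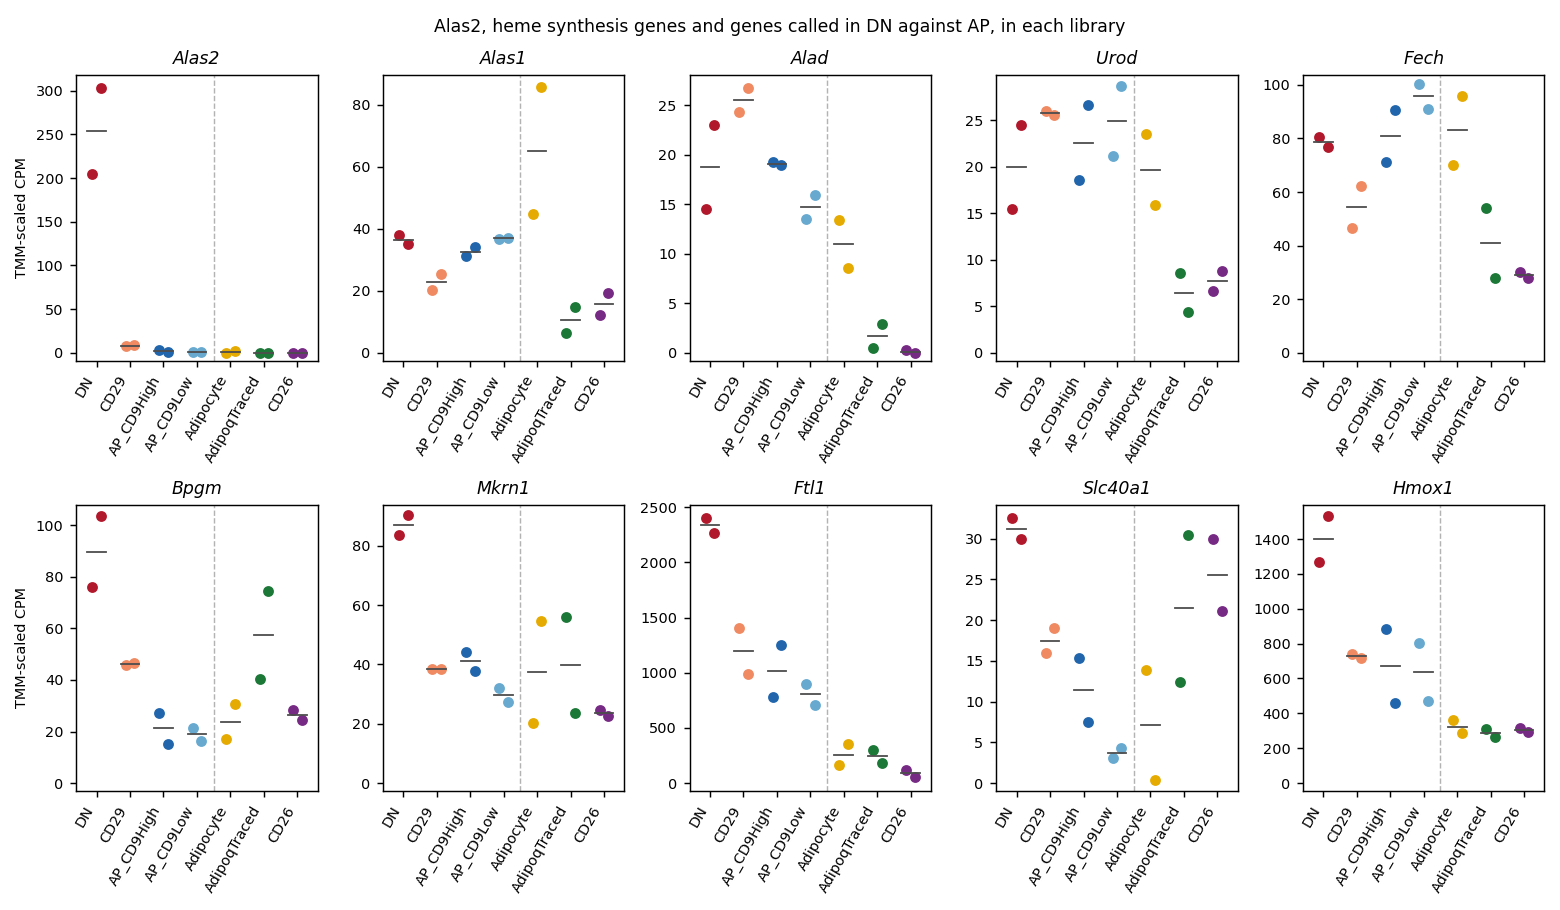
TMM-scaled CPM (linear axes from 0, each panel with its own scale) for Alas2, 4 other heme synthesis genes and 5 genes called in DN against AP. Points are libraries, bars are means of 2, and the dashed line parts the sets; Alas2 stands out in DN, whereas Alas1, Alad, Urod and Fech in DN lie within or near the range of the other reanalysed groups.

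In the other set, globin counts were low, at most 90 for a gene in a library. Hba-a1 had 0 and 31 counts in Adipocyte and 0 in all 4 AdipoqTraced and CD26 libraries, and Alas2 had 0 and 8 in Adipocyte and 0 in those 4. Hbb-bs had 0 and 32 counts in Adipocyte, 90 and 90 in AdipoqTraced, and 46 and 25 in CD26. Hbb-bt had 0 and 15 counts in Adipocyte, 31 and 0 in AdipoqTraced, and 43 and 0 in CD26. The counts of Hba-a1 and Alas2 in this set thus all came from 1 Adipocyte library, in which the nuclear genes had 3255546 counts. Hbb-bs was the 1 gene of the 5 with counts in all 4 AdipoqTraced and CD26 libraries, at 5.80 and 5.79 CPM and at 2.75 and 1.73 CPM. The summed 4 globins were 0 and 15.2 CPM in Adipocyte, 7.79 and 5.79 CPM in AdipoqTraced and 5.32 and 1.73 CPM in CD26, with Adipocyte overlapping both others.

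None of the 5 genes was called in this set by edgeR. In AdipoqTraced against Adipocyte, where 10.4% of all tested genes were called, 1 of the 5 had an unadjusted p under 0.05, and DESeq2 called 2, Hba-a1 and Alas2. The same held in CD26 against Adipocyte, where 10.6% were called. Those DESeq2 calls rested on the single Adipocyte library with counts. In AdipoqTraced against CD26, where 3.86% were called, edgeR called 0 of the 5, with 0 at an unadjusted p under 0.05 and 0 by DESeq2. Hbb-bs had a log2 fold change of 1.35 there (SE 0.79, edgeR adjusted p = 0.36).

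The 76 pathway genes outside the 5 were tested in this set too. In AdipoqTraced against Adipocyte 2 of the 76 rose and 5 fell, a share near the 10.4% called over all genes. In CD26 against Adipocyte 2 rose and 11 fell, where 10.6% of all genes were called; both comparisons share the Adipocyte libraries. Cat, the catalase gene, was at 2260 ± 888 CPM in Adipocyte, 59.7 ± 19.3 in AdipoqTraced and 212 ± 1.61 in CD26 (SD, n = 2 each), with log2 fold changes against Adipocyte of -5.24 (SE 0.37) and -3.42 (SE 0.33). Hp, which makes the hemoglobin-binding plasma protein haptoglobin and is also expressed in fat, was at 1067 ± 266 CPM in Adipocyte, 63.4 ± 8.58 in AdipoqTraced and 14.8 ± 8.63 in CD26 (SD, n = 2 each). Alas1 fell by 2.63 on the log2 scale in AdipoqTraced (SE 0.47) and by 2.08 in CD26 (SE 0.45), from 65.2 ± 29.1 CPM in Adipocyte (SD, n = 2). The iron regulator Aco1 fell in both, by 2.05 and 3.15 on the log2 scale, and the iron transporter Slc11a2 rose in both, by 1.38 and 1.81. In AdipoqTraced, Aco1 lost its call under 4 of 13 alternatives, over which its log2 fold change ran from -3.02 to -0.027. Slc11a2 lost its call there under 3 of 13. In CD26, Aco1 lost its call under 1 of 13 and Slc11a2 under 0. Lrp1, the receptor for heme bound to hemopexin, rose in AdipoqTraced by 1.45. Alad, Fech, Gpx1 and Slc48a1 fell in CD26, by 6.33, 1.52, 2.33 and 2.35 on the log2 scale. Alad had 57 and 44 counts in Adipocyte and 4 and 0 in CD26, so the size of its change rests on counts near the floor. Gpx1 and Slc48a1 each lost their call under 1 of 13 alternatives. In AdipoqTraced against CD26, where 3.86% of all genes were called, 3 of the 76 rose and 2 fell. Tmem14c, Ftl1 and Gpx1 rose by 2.03, 1.44 and 1.51, and Cat and Cd163 fell by 1.83 and 2.61 on the log2 scale. Of 13 alternatives, Cd163 lost its call under 9, Ftl1 and Gpx1 under 7 each, Tmem14c under 3 and Cat under 1.

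Genes whose pattern was most like that of the summed globins were found by Pearson's r of log2 CPM (with a prior count of 2) across libraries. Libraries share a depth scale and a set, so r is a description here. Over all 14 libraries, where r also takes in the difference between the sets, among 11797 genes with at least 10 CPM in some library, the 10 highest outside the 5 genes were Tnf (0.95), C1qa (0.95), Efhd2, Il23a, Tmem37, Card19, Folr2, Sqstm1, Ccl6 and Spi1 (0.92). C1qa was at 600 and 546 CPM in DN, 267 and 259 in CD29, 134 and 131 in AP_CD9High and 55.2 and 68.8 in AP_CD9Low. Over the 8 reanalysed libraries alone, among 9636 genes, they were Ninj1 (0.99), Bst1 (0.99), Trf (0.98), Lgmn, Ctsb, Zc3h12a, Arg2, Lamp1, Atp6ap2 and Txnrd1 (0.97). Trf, the plasma iron carrier transferrin, was at 144 and 145 CPM in DN, 82.5 and 78.1 in CD29 and 63.5 to 73.3 over the AP libraries. No gene was in both lists, and the steps of C1qa and Trf between groups were far smaller than those of the globins.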

How the data were processed

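RNA from sorted wound cells was amplified with a low-input kit and sequenced, per the labels' protocols. The authors deposited whole-number read counts per gene without normalization for the 14 libraries; 0 columns belonged to other samples. Per the submitters' processing notes, which give no role or order, the tools were StringTie 1.3.3b, HISAT2 2.1, CASAVA 1.8.2 and DESeq2 (no version), and the build mm10. Annotation, strand setting and filters were not given in the sources used here; without strand, overlapping genes cannot be told apart.

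The 5 genes and all lists were chosen with earlier results of these data known. Symbols came from GENCODE M21, and 92 of 93 pathway entries (7 lists) and 86 of 86 marker entries (10 lists) matched. The main test was edgeR 4.0.16 (glmQLFit with robust = TRUE, glmQLFTest, two-sided) in R 4.3.3 on the deposited counts, with TMM scaling and filterByExpr by group, which left 18394 genes. One coefficient per group was fitted over all 14 libraries (7 residual degrees of freedom, prior 9.7), AP being AP_CD9Low and AP_CD9High at weight 0.5 each. P-values were adjusted by Benjamini-Hochberg over all tested genes and called under 0.05; SE is the absolute log2 fold change over the square root of F. The fit over all genes includes the 5 genes in contrasts with DN, but their p-values there are not reported or used, since the genes were chosen for DN. DESeq2 1.42.0 was an alternative, with other scalings, edgeR's legacy option, no filter, summed copies, blocks and left-out libraries.

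Named genes were the 5, the other globins and heme enzymes, per other list the 3 called genes with the smallest p in DN contrasts and 2 in the others, and the 10 most alike by r. Some results for individual genes are not reported here. Ube2o, Car2 and genes without counts named for their role were added after their values were seen. Shares with exact binomial intervals (95%, scipy 1.17.1) used library totals of 13760557 to 22218364. The fits were tested on simulated data.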

Additional observations from a re-analysis of the deposited data

How the results depend on the processing

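The log2 ratio of the summed globins in DN against AP ran from 6.34 to 7.14 over 12 alternatives, and that against CD29 was 4.85, or 4.39 with the replicate block by the number in the descriptions, and 4.54 to 5.23 when 1 library was left out. The 13 pathway genes called in DN against AP became 8 with edgeR's legacy option, 3 with that replicate block, and 5 to 11 when 1 library was left out; none of 76 in DN against CD29 became 1 with RLE size factors, library size alone or DESeq2, and 2 with only the reanalysed set fitted. The 4 members called in CD29 against AP became 1 by DESeq2, 0 with the legacy option, and 1 to 4 when 1 library was left out. The 0 called in AdipoqTraced against Adipocyte became 2 by DESeq2, 2 with the legacy option and 1 with library size alone, and the 0 in CD26 against Adipocyte became 2 by DESeq2 and 2 with the legacy option. The cause of these changes was not tested. Over all tested genes, replicates with the same number hardly moved together (correlations of deviations from -0.028 to 0.049). That does not settle pairing for single genes. The summed globins were higher in replicate 1 than in replicate 2 in CD29 (259 and 161 CPM), AP_CD9High (80.9 and 51.2) and AP_CD9Low (53.3 and 23.4). In DN they were lower in replicate 1 (5435 and 6690 CPM). The descriptions number the libraries 2 and 4 in CD29 and the AP groups, and 2 and 3 in DN. With the replicate block by title number, 4 members stayed called in CD29 against AP, and 11 pathway genes in DN against AP.

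In the set of Adipocyte, AdipoqTraced and CD26 the log2 fold changes turned sign at counts this low. Leaving out 1 library, Hbb-bs against Adipocyte lay between -0.044 and 10.03 in AdipoqTraced and between -1.36 and 8.72 in CD26. Hbb-bt against Adipocyte lay between -8.07 and 7.50 in AdipoqTraced and between -8.07 and 7.99 in CD26, and between -7.89 and 7.40 in AdipoqTraced against CD26. With library size alone, Hbb-bt became 1.39 in AdipoqTraced against Adipocyte, and Hbb-bs became 1.16 and Hbb-bt 1.51 in CD26 against Adipocyte. Library size alone moved the median over all genes to 0.39 (log2) in CD29 against AP, where the 4 members stayed called, and to 0.21 in DN against AP. That setting moved the median further against Adipocyte, to 2.25 in AdipoqTraced (8195 genes called) and 1.95 in CD26 (6501 genes called). The TMM factors of the Adipocyte libraries were 0.302 and 0.239, and fold changes against Adipocyte thus depended on the scaling. With 2 libraries a group, where leaving out 1 left a lone library, it was assumed to vary like the others.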
